A study of Homo sapiens with 16 samples.

Results

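Of the 16 RNA libraries in this series, 2 were described here: replicate 2 of the degrader group (degrader 2) and replicate 1 of the p300 knockout group (p300 KO 1). They were chosen by a measured value, a share of counts on the mitochondrial chromosome (MT) above 40%, and each was set against the other 3 libraries of its own group, called its mates. All libraries came from NCI-H929, an established human multiple myeloma line, that is, a tumour of antibody-secreting plasma cells. In the first experiment 4 libraries were from cells exposed for 6 h to 3 nM of p300 degrader 27 and 4 from cells given the vehicle DMSO; in the second, 4 were from cells labelled p300 KO and 4 from cells labelled NTC. The labels put all 16 in batch 1 and do not say how the knockout was made, whether it is a single clone, or whether replicates were separate cultures. With 1 library against 3 and the library chosen by its own counts, no test was possible, and every value below is a description of these libraries.

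Mitochondrial DNA is read out as long transcripts that are cut into tRNAs, rRNAs and mRNAs; its mRNAs encode subunits of the respiratory chain and the ATP synthase, stay inside the organelle, and need no export from the nucleus. Messenger RNAs of nuclear genes are spliced, exported and translated in the cytosol, while some long noncoding RNAs, MALAT1 and NEAT1 among them, stay in the nucleus. p300, the product of EP300, is a histone acetyltransferase and transcriptional coactivator, and CREBBP encodes its paralog.

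In the degrader group the mitochondrial share was 5.99%, 64.9%, 6.29% and 6.96% of all counts in replicates 1 to 4. In the p300 KO group it was 47.7%, 10.2%, 10.7% and 11.4%. Degrader 2 and p300 KO 1 stood far above every other library, and no other library came near 40%. The exact binomial 95% interval was 64.8 to 64.9% for degrader 2 and 47.7 to 47.8% for p300 KO 1, for counting error only, because copies made by PCR are counted again. The library just below the threshold was DMSO 3 at 23.5%, the highest of the DMSO group (13.4 to 23.5%); the NTC libraries ran from 8.91 to 10.3%. Nuclear counts, those outside chromosome MT, came to 4.42 M in degrader 2 against 16.7 to 18.1 M in its mates, and to 8.66 M in p300 KO 1 against 18.3 to 19.6 M. A nuclear gene with 0 counts could therefore have been at up to 0.678 nuclear CPM (CPM with the nuclear counts as the total) in degrader 2 and 0.347 in p300 KO 1, the level of 3 counts.

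**Figure D1:**
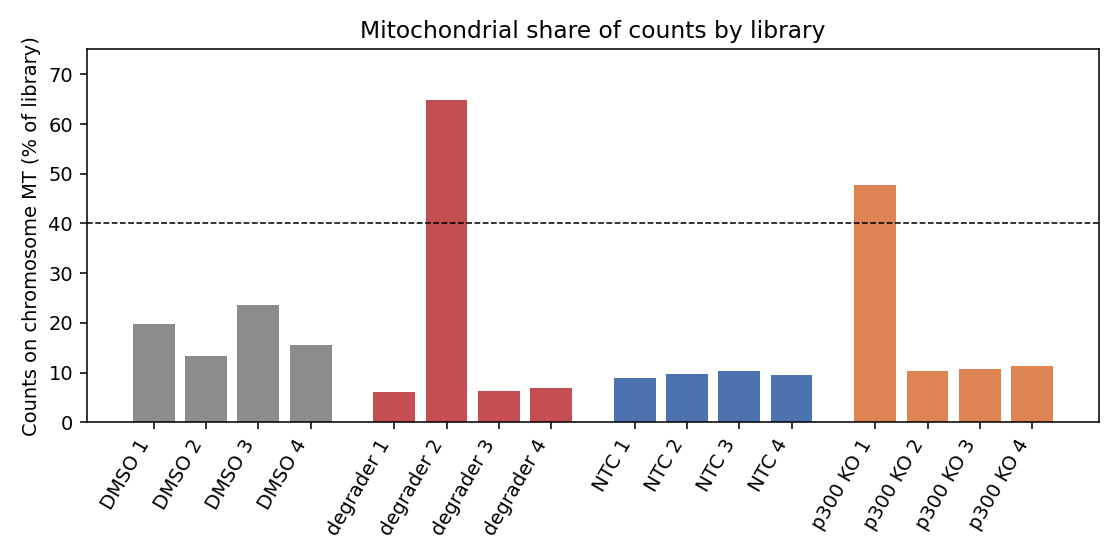
Counts on chromosome MT as a percentage of all counts (y axis) for each of the 16 libraries (x axis, bars coloured by group); the dashed line is the 40% threshold. Degrader 2 (64.9%) and p300 KO 1 (47.7%) are the 2 bars above the line, and the next highest is DMSO 3 at 23.5%.

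The 35 chromosome MT genes in the count tables are 13 mRNAs and 22 tRNAs; mitochondrial rRNAs were not analysed here. Per nuclear count the mRNAs were all higher than in the mates, from 19.7-fold (MT-CO3) to 33.5-fold (MT-ATP8) in degrader 2 and from 6.81-fold (MT-ND3) to 8.25-fold (MT-ND5) in p300 KO 1, which restates the choice of these libraries. The mixture within the mitochondrial counts was not part of that choice. MT-CO1, the catalytic subunit of cytochrome c oxidase, was 25.5% of mitochondrial counts in degrader 2 against 25.3 to 26.7% in its mates, within their range. MT-CO3, another subunit of that enzyme, was 6.87% against 9.36 to 9.46%, below every mate. MT-ATP6, a subunit of the ATP synthase, was 12.4% against 9.62 to 10.7%, above every mate, and MT-ND5 of complex I was 10.1% against 8.70 to 9.01%. In p300 KO 1 MT-CO1 was 25.4% against 24.8 to 26.1%, MT-ATP6 12.1% against 12.02 to 12.6% and MT-CO3 7.19% against 7.45 to 7.95%. Here MT-CO1 and MT-ATP6 lay inside the mates' range and MT-CO3 just below it. MT-ND5 lay above every mate in p300 KO 1 too, at 10.24% against 8.933 to 9.955%.

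Nuclear genes were then compared on nuclear CPM, so that the mitochondrial counts no longer took part in the scaling. A gene's deviation is log2(nuclear CPM + 0.5) in the library minus the mean of the same quantity over its 3 mates; a deviation of 1 in either direction is called 2-fold. The 10869 genes with a mean of at least 5 nuclear CPM over the 8 libraries entered (10059 protein-coding, 810 of other types). In bulk RNA, fewer cells of a type and less RNA per cell cannot be told apart.

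EP300, the gene the labels name as knocked out, was read first as a check of the labels. It was 118, 110, 109 and 111 nuclear CPM in NTC replicates 1 to 4 and 59.9, 45.6, 40.05 and 45.0 in p300 KO replicates 1 to 4, so every p300 KO library, p300 KO 1 included, lay below every NTC library, and p300 KO 1 lay above its mates at 1.38 times their mean. EP300 was 47.3, 58.7, 58.9 and 54.8 in DMSO replicates 1 to 4 and 61.6, 184, 59.4 and 62.8 in degrader replicates 1 to 4. Degrader 2 stood apart at 3.01 times its mates' mean; a degrader acts on the protein, so EP300 RNA does not check the degrader label.

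In degrader 2, 1552 genes were at least 2-fold higher than in the mates (14.3% of those measured) and 1300 at least 2-fold lower (12%). In p300 KO 1 the counts were 663 higher (6.10%) and 130 lower (1.20%). The SD of the deviations over all genes was 0.96 in degrader 2 and 0.59 in p300 KO 1, against 0.11 to 0.30 for the other 14 libraries, each set against the rest of its group without the mitochondria-rich libraries. Those 14 libraries had at most 12 genes 2-fold higher and 32 genes 2-fold lower, both in DMSO 3. The balance of higher and lower genes rested on the scaling: higher genes were 54.4% of the 2-fold genes in degrader 2 and 83.6% in p300 KO 1 on nuclear totals, 27.5% and 42.3% with TMM factors, and 36.2% and 58.5% with median-of-ratios factors. These scalings moved the median deviation of all genes from -0.06 in both libraries to -0.44 and -0.32 (TMM) and to -0.30 and -0.22 (median of ratios), so the values below are best read relative to that median.

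The libraries deviated largely in the same genes, although they share neither experiment nor mates. Both had 631 genes at least 2-fold higher (5.81% of those measured) and 96 at least 2-fold lower (0.883%), and 0 genes were 2-fold higher in one and 2-fold lower in the other. The 631 were 40.7% of the higher genes of degrader 2 and 95.2% of those of p300 KO 1; the 96 were 7.38% and 73.8% of the lower genes. Across the 10869 genes of these 8 libraries the deviations had a Pearson r of 0.84 and a Spearman rho of 0.79, given as a description since genes are not independent replicates, and 80.2% of genes had the same sign in both. Over the 2053 genes with a mean of at least 100 nuclear CPM, where counting error is small, r was 0.90. A gene can pass the minimum level through the mitochondria-rich library alone: with the minimum set on the 6 mates only, 473 of the 631 and all 96 remained. With TMM factors 382 genes were higher and 449 lower in both, and with median-of-ratios factors 495 and 285; the 96 were among the lower genes under both.

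**Figure D2:**
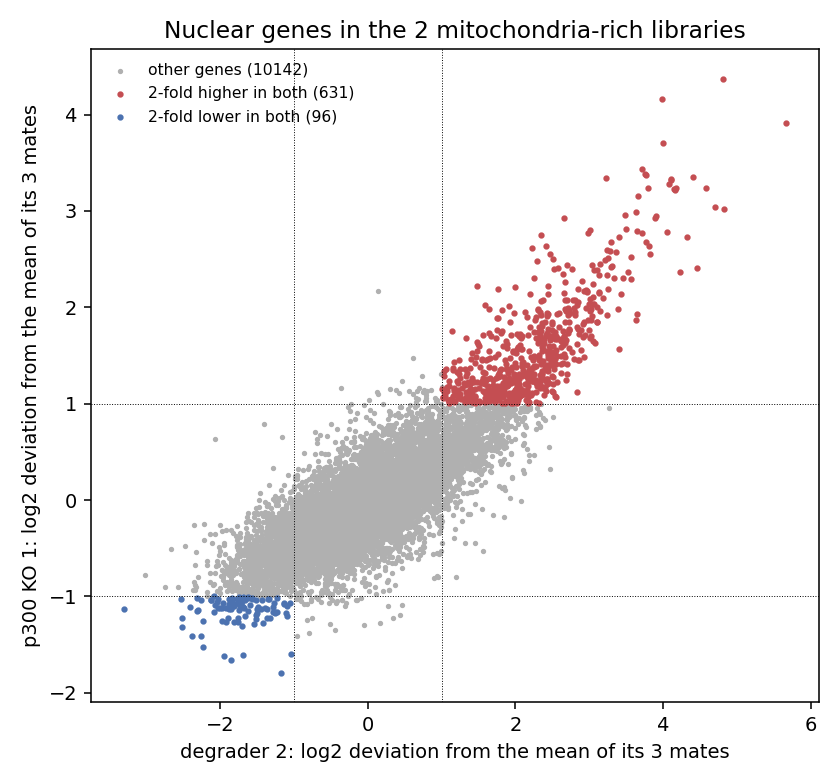
Each point is 1 of 10869 nuclear genes: log2 deviation from the 3 mates in degrader 2 (x axis) and in p300 KO 1 (y axis), with dotted lines at 2-fold. The 631 genes higher in both are red, the 96 lower in both blue, and the cloud runs from lower left to upper right (r = 0.84).

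The protein-coding genes with the clearest excess in both libraries included ankyrin-repeat genes, PPIG, REST and the proteoglycan gene BCAN. PPIG, a nuclear cyclophilin with a serine-arginine domain, stood at 152, 1637, 156 and 188 nuclear CPM in degrader replicates 1 to 4, so replicate 2 was 9.91 times the mates' mean of 165 ± 19.6 (SD, n = 3). In p300 KO replicates 1 to 4 PPIG was 526, 87.5, 104 and 99.9, and replicate 1 was 5.41 times the mates' mean. The mates of each group overlapped each other closely, and the mitochondria-rich library alone stood apart. ANKRD12, an ankyrin-repeat nuclear protein, was 93.0, 1178, 99.9 and 115 in the degrader group and 649, 112, 126 and 138 in the p300 KO group. REST, the repressor of neuronal genes, was 41.4, 390, 39.0 and 52.7, and 225, 47.9, 48.7 and 53. HMGN5 (nucleosome binding), FAM133B, KIAA2026, ESF1 (ribosomal RNA processing) and NEMF (ribosome quality control) had ratios to the mates' mean between 6.70 (HMGN5) and 12.1 (KIAA2026) in degrader 2 and between 4.47 (NEMF) and 5.65 (HMGN5) in p300 KO 1. BCAN was 79.6 against 6.35 to 11.02, and 166 against 24.6 to 28.9. ANKRD36C, ANKRD36 and ANKRD36B had ratios of 12.5, 10.5 and 9.07 in degrader 2 and 7.15, 6.72 and 5.57 in p300 KO 1. These 3 genes lie on chromosome 2, and the transcripts of ANKRD36B and ANKRD36C match that of ANKRD36 at 96.6% and 96.4% of aligned bases, so how reads were split among them is uncertain. Genes ranked here needed a mean of 20 nuclear CPM over the 8 libraries, mitochondria-rich ones included. The mates' means were below that in both groups for HMGN5 (12.1 and 10.5), ANKRD36C (16.4 and 11.6) and ANKRD36B (12.7 and 10.8). For BCAN they were 8.02 in the degrader group and 27.4 in the p300 KO group. Its mean over the 6 mates was also below 20. HMGN5, ANKRD36C, ANKRD36B and BCAN were therefore named only through their excess.

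The genes lower in both libraries held enzymes of glycolysis, proteins of the secretory pathway and a proton-pump subunit. SPTLC1, a subunit of the first enzyme of sphingolipid synthesis, was 36.4, 9.72, 40.04 and 33.2 nuclear CPM in degrader replicates 1 to 4 and 13.5, 43.0, 40.7 and 48.1 in p300 KO replicates 1 to 4. ATP6V0C, a membrane subunit of the lysosomal proton pump, was 79.0, 14.0, 77.9 and 67.3, and 34.5, 88.6, 101 and 89.4. In each case the mitochondria-rich library lay below all 3 mates, with ratios to the mates' mean of 0.266 and 0.308 for SPTLC1 and of 0.188 and 0.371 for ATP6V0C. PGK1 and PGAM1, enzymes of the later steps of glycolysis, had ratios of 0.297 and 0.308 in degrader 2 and of 0.414 and 0.405 in p300 KO 1. PRDX4, a peroxiredoxin of the endoplasmic reticulum (ER), was at 0.171 and 0.398 of the mates' mean, PDIA6, a protein disulfide isomerase, at 0.211 and 0.417, and RCN2, a calcium-binding ER protein, at 0.203 and 0.369. SRGN (a granule proteoglycan), PAIP2 (a translation repressor), SRSF9 (a splicing factor), MMGT1 (an ER membrane protein) and LAP3 (an aminopeptidase) lay between 0.255 (SRSF9) and 0.344 (MMGT1) in degrader 2 and between 0.414 (SRGN) and 0.425 (LAP3) in p300 KO 1.

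The base composition of some of these messages is shown by the first 60 coding bases of 2 genes higher and 2 genes lower in both libraries, from the GENCODE 29 transcripts on GRCh38, 5′ to 3′, with G and C in capitals.
PPIG (chromosome 2, 169584340 to 169641406, plus strand): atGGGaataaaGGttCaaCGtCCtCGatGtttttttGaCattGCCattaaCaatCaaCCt
ANKRD12 (chromosome 18, 9136228 to 9285985, plus strand): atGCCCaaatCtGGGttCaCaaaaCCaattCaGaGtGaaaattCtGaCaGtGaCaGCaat
ATP6V0C (chromosome 16, 2513870 to 2520218, plus strand): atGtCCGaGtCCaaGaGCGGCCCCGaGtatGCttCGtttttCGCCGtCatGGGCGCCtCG
SPTLC1 (chromosome 9, 92031999 to 92115384, minus strand): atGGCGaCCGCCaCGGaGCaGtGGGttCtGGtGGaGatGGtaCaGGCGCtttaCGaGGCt
G and C made up 22 and 24 of these 60 bases in PPIG and ANKRD12 and 37 in both ATP6V0C and SPTLC1. Starts not printed here did not divide this way. Among genes higher in both, G and C were 39 of 60 in ANKRD36, 38 in ANKRD36C and 30 in ANKRD36B. Among genes lower in both they were 31 in PGK1, 37 in PGAM1 and 43 in PRDX4. Over the whole transcript GC was 34.8% in PPIG, 35.6% in ANKRD12, 63.6% in ATP6V0C and 42.9% in SPTLC1, so the start of SPTLC1 is richer in G and C than the rest of it. The contrast between these examples is wider than that between the sets: the median transcript GC was 42.9% in the genes higher in both, 48.2% in those lower in both and 48.9% in all genes measured.

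Length and base composition both went with the deviation, length the more so in degrader 2. Genes were put in 10 bins of equal size by summed exon length as deposited, with bin medians from 1443 to 12572 bases. The median deviation in degrader 2 was -0.42 in the shortest bin, -0.47 in the next and 0.65 in the longest, and did not decrease from the second bin on. The median in p300 KO 1 was -0.05 in the shortest bin, -0.18 in the second and 0.20 in the longest, a shallow U rather than a slope. Longest minus shortest came to 1.08 and 0.25, but with no minimum level it was 0.40 in degrader 2 and -0.068 in p300 KO 1. In the longest bin 350 of 1087 genes were 2-fold higher in degrader 2 and 13 were 2-fold lower; in the shortest, 177 were higher and 295 lower.

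By transcript GC, with bin medians from 37.1 to 64.3%, the median deviation went from 0.25 in the bin poorest in G and C to -0.14 in the richest in degrader 2, and from 0.09 to -0.03 in p300 KO 1. With TMM factors the lowest GC bin stood at -0.13 and -0.17, so its sign depends on the scaling and the order of the lowest and highest bins does not. Crossing length and GC in 3 classes each, long transcripts were higher in degrader 2 whatever their GC (0.43, 0.32 and 0.14 from low to high GC) and short ones lower (-0.44, -0.54 and -0.38). In p300 KO 1 the only class above 0.1 was that of long transcripts of low GC (0.11, 1735 genes); the short class of middle GC was at -0.17. Expression level went with the deviation as well: from the lowest to the highest of 10 bins by mean level, the median was 0.30 to -0.35 in degrader 2 and 0.13 to -0.15 in p300 KO 1. Both this level and the minimum were means that include the mitochondria-rich libraries. The lowest bin can therefore hold genes that passed only through their excess, which raises its median. The separate parts of level, length and GC were not tested.

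**Figure D3:**
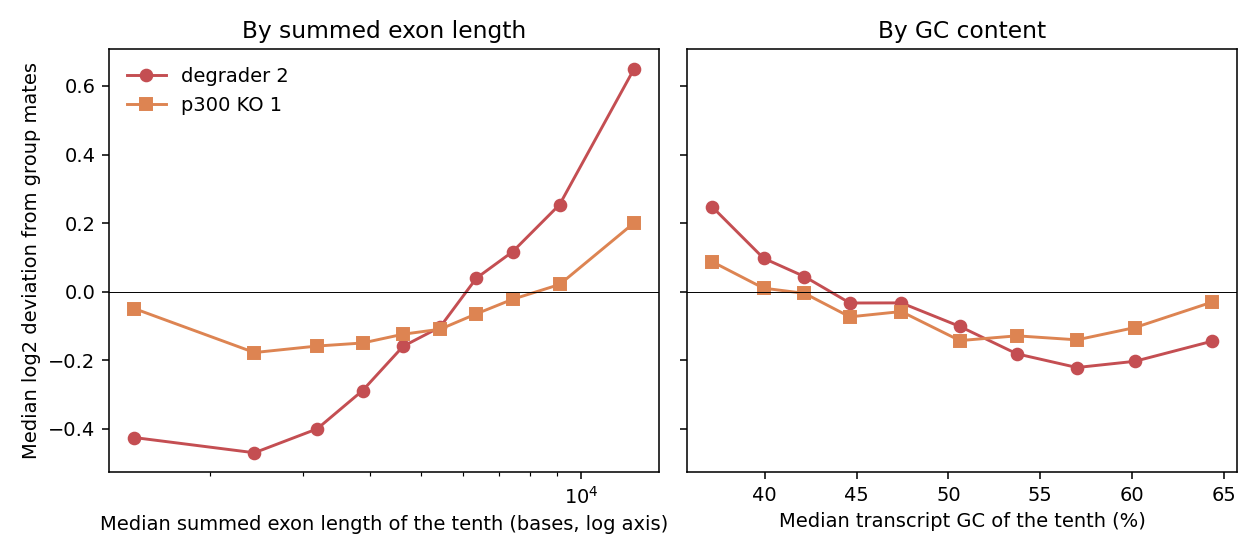
Median log2 deviation from the mates (y axis) in 10 bins of genes by summed exon length (left, x axis in bases, log scale) and by transcript GC (right, x axis in percent), for degrader 2 (circles) and p300 KO 1 (squares). Degrader 2 runs from -0.42 in the shortest to 0.65 in the longest bin, p300 KO 1 only from -0.05 to 0.20, and both are highest in the bin poorest in G and C.

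The sets shared by both libraries differed from the other genes in the same features. The median length of the longest transcript was 3728 bases in the genes higher in both, 2048 in those lower in both and 3324 in all. Median coding length was 1916, 942 and 1362 bases and median 3′ UTR length 1774, 773 and 1320 bases in the same order. The number of exon blocks had medians of 10, 5 and 11. Weighted by counts, the mean length of coding transcripts was 3860 bases in degrader 2 against 3101 to 3117 in its mates, and 3726 in p300 KO 1 against 3433 to 3549; each lay above all its mates. The interquartile range of transcript length in the genes higher in both, 1818 to 6804 bases, held that of all genes (2108 to 5142). With the minimum set on the mates the medians were 4370 bases in the genes higher in both, 2072 in those lower in both and 3333 in all, and the median GC was 41.8%, 48.7% and 49.0%.

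Protein-coding genes made up 66.9% of the genes higher in both, 84.4% of the genes lower in both and 92.5% of all genes measured. Part of this came from the minimum level, which a gene of low level can pass through the mitochondria-rich library alone: with the minimum set on the 6 mates the shares were 78.4% of 473, 84.2% of 101 and 93.7% of 10638 genes. The shares of counts by type do not rest on that minimum. Long intergenic RNAs (lincRNA) took 4.14% of nuclear counts in degrader 2 against 0.609 to 0.725% in its mates, and 3.29% in p300 KO 1 against 0.928 to 0.991%. Protein-coding genes took 91.4% against 96.0 to 96.3%, and 92.7% against 96.1 to 96.2%. Of all genes measured, 14.3% were 2-fold higher in degrader 2 and 6.10% in p300 KO 1. Beside this, 78 and 51 of 204 antisense genes were, 66 and 47 of 177 lincRNAs, and 14 and 12 of 19 sense-intronic transcripts. These counts include genes that passed only through their excess. With the minimum set on the mates they were 44 and 24 of 165 antisense genes, 47 and 31 of 158 lincRNAs, and 4 and 4 of 10 sense-intronic transcripts. Under that minimum 1127 and 394 of 9968 protein-coding genes were 2-fold higher. Processed pseudogenes then had medians of -0.84 and -0.42, against 0.07 and 0.05 before, so their direction rests on the minimum. The use of strand in counting is not stated, so reads of a gene and of its antisense or intronic partner cannot be told apart. At an equal depth of 4422984 nuclear counts, 23775 genes had a count in degrader 2 against 20825 to 21457 in its mates, and 24927 in p300 KO 1 against 22313 to 22681.

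MALAT1, a nuclear-retained RNA of nuclear speckles, stood at 2380, 33864, 2578 and 3333 nuclear CPM in degrader replicates 1 to 4. In p300 KO replicates 1 to 4 it was 23062, 2677, 2852 and 3192. The mitochondria-rich libraries were 12.2 and 7.93 times their mates' means, and MALAT1 alone took most of the lincRNA share. Of the 9 nuclear long noncoding RNAs measured, all 9 were 2-fold higher in degrader 2 and 4 in p300 KO 1 (MALAT1, KCNQ1OT1, FTX and JPX), with medians of 1.59 and 0.98. These were 100% and 44.4% of the list, against 14.3% and 6.10% of all genes. Members could reach the minimum level through the mitochondria-rich libraries alone. KCNQ1OT1, an imprinted nuclear antisense RNA, was 139 against 11.7 to 17.6, and 127 against 16.02 to 23.4. An unnamed lincRNA on chromosome 22 (ENSG00000274422, 22283928 to 22287220 in the files, GRCh38) was 259 against 3.81 to 6.23, and 109 against 5.91 to 8.35. It reached the mean of 20 nuclear CPM required for this ranking only through the mitochondria-rich libraries. Among the genes of other types lower in both were SNHG29, a snoRNA host, at 0.239 and 0.469 of the mates' mean, and the immunoglobulin segment IGKV3D-15 at 0.171 and 0.491, a segment with near-identical relatives.

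All 7 nuclear pseudogenes of mitochondrial genes that reached the minimum level were 2-fold higher in both libraries, with medians of 4.45 and 2.78. Of all genes measured, 5.81% were. The minimum includes the mitochondria-rich libraries, so a copy could pass through its excess alone, and these values partly rest on that. Without a minimum, all 399 such genes summed to 11790 nuclear CPM in degrader 2 against 400 to 580 in its mates. In p300 KO 1 they summed to 6950 against 667 to 851. Most of each sum was MTATP6P1. MTATP6P1 was 326, 9795, 499 and 427 nuclear CPM in degrader replicates 1 to 4 and 6012, 550, 649 and 724 in p300 KO replicates 1 to 4. MTATP6P1 was 23.5 and 9.38 times its mates' mean, MTCO1P12 26.3 and 8.27 times and MTND2P28 29.5 and 8.31 times. Per nuclear count MT-ATP6, MT-CO1 and MT-ND2 were 32.55, 26.53 and 29.29 times in degrader 2 and 7.42, 7.625 and 7.408 times in p300 KO 1. In degrader 2 MTATP6P1 thus lay well below MT-ATP6 and the other copies lay near their genes. In p300 KO 1 each copy lay above its gene. The 3 copies lie within chromosome 1 from 629640 to 634376 (GRCh38) and match MT-ATP6, MT-CO1 and MT-ND2 at 98.5%, 98.7% and 98.4% of aligned bases, so mitochondrial reads counted there cannot be told apart from their own transcripts in these tables. The first 60 bases of the pair on GRCh38 are shown in lower case with the base that differs in capitals.
MT-ATP6 (chromosome MT, 8527 to 9207, plus strand): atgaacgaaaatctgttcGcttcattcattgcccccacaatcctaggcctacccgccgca
MTATP6P1 (chromosome 1, 633696 to 634376, plus strand): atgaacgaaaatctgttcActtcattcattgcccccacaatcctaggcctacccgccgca
They differ at 1 of these 60 bases and at 10 of 681 in all. Without the copies r between the libraries was 0.84, the value with them.

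Among gene groups by function, secretory and metabolic lists were among the lowest in both libraries. Counts of 2-fold genes are to be read against the shares of all genes, 12% lower and 14.3% higher in degrader 2 and 1.20% and 6.10% in p300 KO 1. The 42 genes of ER folding and secretion had a median deviation of -0.98 in degrader 2, where 21 (50%) were 2-fold lower and 3 (7.14%) higher, and of -0.43 in p300 KO 1, where 1 was lower and 1 higher. Relative to the median of all genes that list stood at -0.92, -0.93 and -0.92 in degrader 2 with nuclear totals, TMM and median-of-ratios factors. Its lower members included PDIA6 and the chaperone HSPA5, at -2.23 and -2.03 in degrader 2 and -1.26 and -0.67 in p300 KO 1. Against the list's direction, SRP72 of the signal recognition particle was 912 against 149 to 161 nuclear CPM in the degrader group and 286 against 115 to 133 in the p300 KO group, and SEC62, a translocon partner, was 448 against 184 to 195, and 262 against 128 to 141. Glycolysis (17 genes) had medians of -0.96 and -0.63, with 8 (47.1%) and 2 (11.8%) genes 2-fold lower and 0 higher. LDHA, which makes lactate, was 765 against 1811 to 1945, and 1117 against 2123 to 2257. The tricarboxylic acid cycle (18 genes) had medians of -0.73 and -0.51, with 7 genes (38.9%) 2-fold lower in degrader 2 and 0 in p300 KO 1.

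Nuclear genes for mitochondrial proteins did not share the excess of the mitochondrial transcripts. The 80 nuclear subunits of oxidative phosphorylation had a median of -0.75 in degrader 2, with 31 genes (38.8%) 2-fold lower and 0 higher, and of -0.07 in p300 KO 1, close to the all-gene median of -0.06, with 1 lower and 2 higher. UQCRFS1, the iron-sulfur subunit of complex III, was 148, 28.9, 145 and 138 nuclear CPM in degrader replicates 1 to 4 and 47.9, 102, 108 and 108 in p300 KO replicates 1 to 4. Of the 80 subunits listed it was the only 1 that was 2-fold lower in both. Of all genes measured 0.883% were, so this count is near that share. Mitochondrial ribosomal proteins (78 genes) had medians of -0.76 and -0.14, and import and folding factors (27 genes) of -0.77 and -0.26. The 28 genes for transcription, processing and decay of mitochondrial RNA stood near the median of all genes, at -0.14 and 0.01. TRMT10C, a subunit of the mitochondrial RNase P, was 102 against 33.8 to 35.8, and 42.8 against 23.0 to 25.03, and MTPAP, the mitochondrial poly(A) polymerase, was 104 against 49.9 to 55.5, and 66.6 against 31.2 to 36.1. Of 17 mitophagy genes 4 (23.5%) were 2-fold lower in degrader 2, where 12% of all genes were; in p300 KO 1, where 1.20% of all genes were, 0 of 17 says nothing about this list. PINK1 was 3.39 against 7.54 to 10.1, and 16.6 against 28.6 to 29.8.

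Translation lists were low in degrader 2 and closer to the median of all genes in p300 KO 1. Cytosolic ribosomal proteins (84 genes) had a median of -0.57 in degrader 2, with 29 genes (34.5%) 2-fold lower and 1 higher, and of -0.07 in p300 KO 1, with 3 lower and 0 higher. RPL7, RPL10A and RPL39L were 2-fold lower in both; RPL7 was 905 against 3747 to 3891, and 1469 against 2854 to 3003. Ribosomal protein genes have many processed copies, so their levels are uncertain. The 33 translation elongation and initiation factors had medians of -0.42 and -0.22. In degrader 2, 11 (33.3%) were 2-fold lower and 5 (15.2%) higher, the latter near the 14.3% of all genes. In p300 KO 1, 0 were lower and 1 higher, where 1.20% and 6.10% of all genes were. EEF1A1, the elongation factor, was 6319 against 16390 to 17320, and 10520 against 18070 to 19120, while EIF2S2, a subunit of initiation factor eIF2, was 2171 against 516 to 581, and 832 against 279 to 297. Proteasome genes (46) had medians of -0.48 and -0.09 and lay on both sides: PSMC1 was 4.53 and 2.27 times its mates' mean and PSMB5 0.286 and 0.524 of it.

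Lists of large nuclear, centrosomal and cytoskeletal proteins lay on the other side. The 22 histone acetyltransferases and bromodomain readers measured had medians of 1.01 and 0.43, with 11 (50%) and 4 (18.2%) genes 2-fold higher, against 14.3% and 6.10% of all genes. BPTF, a chromatin remodeller subunit, was 510 against 87.7 to 94.5, and 294 against 103 to 115. The 44 giant cytoskeletal, membrane and scaffold proteins had a median of 0.77 in degrader 2, with 16 (36.4%) higher and 0 lower, and of 0.21 in p300 KO 1 (-0.055 with TMM factors), with 7 (15.9%) higher and 0 lower. AKAP9, a centrosomal and Golgi scaffold, was 748 against 93.7 to 121, and 408 against 94.8 to 109. Centrosomal CEP genes (36) had medians of 0.61 and 0.50, with 10 (27.8%) and 4 (11.1%) higher. Kinesins (28) had medians of 0.64 and 0.11, the latter -0.16 with TMM and -0.046 with median-of-ratios factors. The 258 ZNF genes had medians of 0.36 and 0.14, which were -0.014 and -0.11 with TMM factors, with 59 genes (22.9%) 2-fold higher in degrader 2, and 17 (6.59%) in p300 KO 1, which is near the share of all genes. The 15 replication-dependent histones that reached the minimum had medians of 0.93 and 0.25. In p300 KO 1 their median was -0.011 with TMM factors and -0.31 with the minimum set on the mates. Relative to the median of all genes, giant proteins, kinesins, ZNF genes and histones stayed above 0 in both libraries under all 3 scalings.

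**Figure D4:**
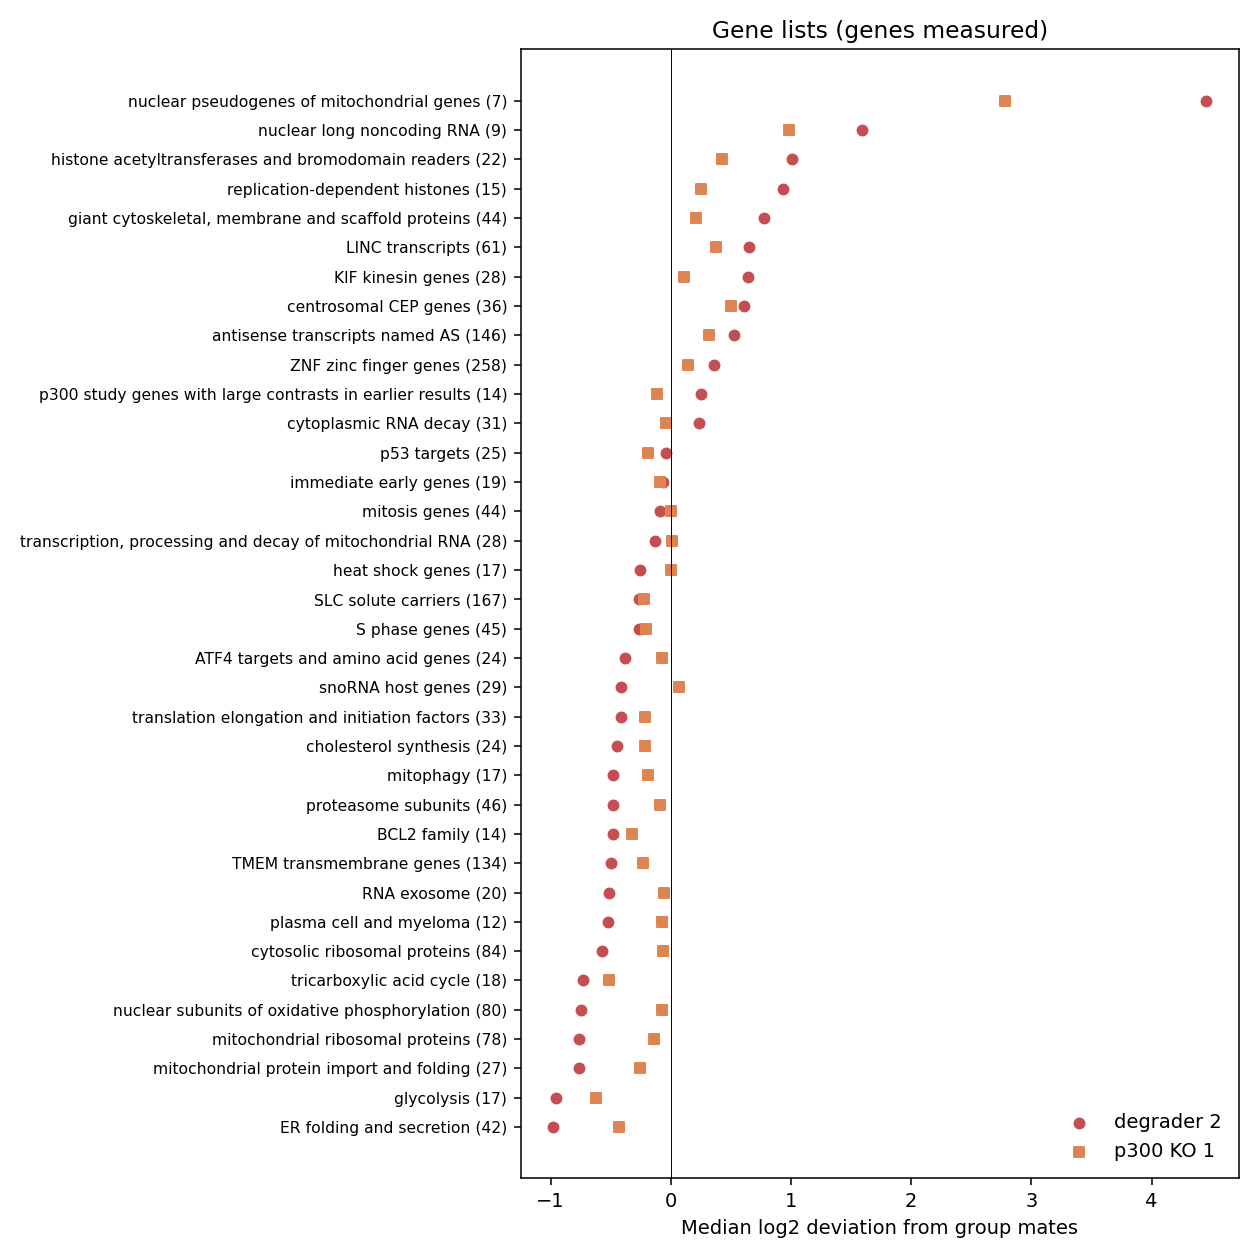
Median log2 deviation from the mates (x axis) for each gene list with at least 5 genes measured (y axis, number measured in brackets), in degrader 2 (circles) and p300 KO 1 (squares), ordered by degrader 2. In degrader 2 ER folding and secretion (-0.98) and glycolysis (-0.96) are lowest; in p300 KO 1 glycolysis (-0.63), the tricarboxylic acid cycle (-0.51) and ER folding and secretion (-0.43) are. Highest in both are nuclear pseudogenes of mitochondrial genes (4.45 and 2.78) and nuclear long noncoding RNAs (1.59 and 0.98). Members of these lists could reach the minimum level through the mitochondria-rich libraries alone.

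Stress and cell-cycle lists had medians of at most 0.38 in size in either library. The p53 targets (25 genes) had medians of -0.04 and -0.19, immediate early genes (19) -0.07 and -0.09, ATF4 targets (24) -0.38 and -0.07, and heat shock genes (17) -0.26 and 0.00. S phase genes (45) had medians of -0.27 and -0.21, and mitosis genes (44) -0.09 and 0.00. Single members stood out in both directions: the chaperone HSP90AA1 was 9836 against 2508 to 2824, and 4727 against 1969 to 2118, and its fellow HSPA8 was 1241 against 4191 to 4711, and 996 against 1900 to 2092. TOP2A, the topoisomerase of dividing cells, was 1759 against 363 to 399, and 1074 against 402 to 436. No gene was 2-fold higher in one library and 2-fold lower in the other, but some had opposite signs. BHLHE40, a transcriptional repressor, was 11.98 against 6.71 to 7.79 in the degrader group and 39.97 against 50.1 to 64.5 in the p300 KO group. HSPA1B, an inducible chaperone with a near-identical copy, was 16.7 against 44.2 to 45.8, and 57.5 against 32.1 to 34.4, deviations of -1.40 in degrader 2 and 0.79 in p300 KO 1.

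Other genes tied to the study's question were read beside EP300. CREBBP was 44.0, 86.8, 44.2 and 46.3 in the degrader group, and in the p300 KO group 78.1, 79.0, 71.2 and 77.8, where p300 KO 1 lay within its mates' range. EGR1, an immediate early transcription factor, was 36.0, 34.1, 36.4 and 34.8 in the degrader group against 5.57 to 8.53 in DMSO. Degrader 2 thus lay 0.07 below its mates on the log2 scale and apart from every DMSO library. EGR1 had been picked from earlier results of these libraries, so its level does not check the label. The p300 KO group had 23.9, 16.5, 12.8 and 15.99 nuclear CPM of EGR1, and p300 KO 1 lay beyond its mates, just above the NTC range of 20.7 to 23.2. MYC was 37.5 in degrader 2, within its mates' 30.6 to 38.4, and 47.8 in p300 KO 1, below its mates' 56.6 to 66.4. IRF4, a transcription factor of plasma cells, was 275, 314, 268 and 259 in the degrader group and 426, 465, 437 and 450 in the p300 KO group, so degrader 2 lay well above its mates and p300 KO 1 just below its own. DDIT4, an inhibitor of mTORC1 signalling, was 65.6 in degrader 2 against 105 to 120, with 414 to 585 in DMSO; in p300 KO 1 it was 535 against 901 to 1022, inside the NTC range of 503 to 573. The 14 genes of this group had been picked from earlier results of these libraries and had medians of 0.25 (-0.095 with TMM factors) and -0.11.

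Markers of the labelled cell type were present in both libraries at altered levels. All 12 plasma cell and myeloma markers were measured, with median deviations of -0.52 and -0.08. Their summed level was 11470 nuclear CPM in degrader 2 against 18440 to 18970, and 15620 in p300 KO 1 against 16270 to 16460. JCHAIN alone made 7193 and 10860 of these sums, against mates' means of 12620 and 10590, so the sums mostly follow that gene. XBP1, the plasma cell regulator of secretion, was 705 against 1940 to 2121, and 996 against 1791 to 1838, and the surface marker SDC1 169 against 469 to 515, and 252 against 452 to 498. PRDM1, which directs plasma cell identity, went the other way, at 298 against 101 to 108, and 367 against 230 to 273. NSD2 did too, at 1314 against 742 to 762, and 1256 against 1032 to 1104. Of the markers of other cell types, none of the 7 monocyte, 6 erythroid or 6 fibroblast markers reached the minimum level, and S100A8, HBA2, HBG1, LUM and KRT19 were at 0 in all 8 libraries. Summed erythroid markers were 3.39 nuclear CPM in degrader 2 against 0.773 to 1.20, and 1.73 in p300 KO 1 against 0.613 to 0.785. In degrader 2 that sum rests on 8 counts of HBB, 6 of ALAS2 and 1 of HBA1. Summed earlier B cell markers, of which 1 of 7 (BACH2) was measured, were 43.9 against 10.99 to 14.2, and 36.3 against 20.1 to 24.4. Of 6 NK cell markers 4 were measured. Their list summed to 73.9 against 73.1 to 76.9 in the degrader group. NCAM1 made 70.1 of the sum in degrader 2, so that sum says little about the other members. In degrader 2 GNLY was 3.39 (15 counts) against 0.884 to 1.14, and NKG7 was 0 against 1.05 to 1.92. The list summed to 115 against 88.8 to 94.5 in the p300 KO group. There GNLY, a cytotoxic granule protein, was 33.7 against 15.1 to 18.1, PRF1 (perforin) 17.1 against 6.54 to 7.86 and NKG7 12.7 against 7.48 to 8.58, while NCAM1 was 49.3 against 55.9 to 61.0. Of 7 T cell markers 2 were measured, and the list summed to 16.7 against 27.5 to 30.8, and 41.8 against 42.5 to 44.9; CD3E, a T cell receptor subunit, was 13.6 against 25.6 to 27.8 in the degrader group. Epithelial markers (1 of 5 measured, KRT18) summed to 16.5 against 10.4 to 13.1, and 22.3 against 18.2 to 19.4. Genes listed as markers of adherent lines (1 of 4 measured, VIM) summed to 1168 against 1389 to 1525, and 1973 against 1787 to 1924. VIM alone made 1159 and 1965 of these sums and was high in the mates too. These sums are therefore the level of VIM and do not point to another cell type. The part of these differences in the gene values was not tested, and no RNA integrity values were used.

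The shared genes were finally followed in the libraries that took no part in choosing them. For each library the median deviation of the 631 genes higher in both was taken against the rest of its own group, leaving out the mitochondria-rich libraries. In DMSO replicates 1 to 4 it was 0.00, -0.31, 0.44 and -0.13, while their mitochondrial shares were 19.7%, 13.4%, 23.5% and 15.5%; the order of the medians was that of the shares. For the 96 genes lower in both the medians were -0.02, 0.33, -0.48 and 0.21, the reverse order. DMSO 3, with the highest share of its group, had 624 of the 631 genes above and 93 of the 96 below the mean of the other 3. In NTC replicates 1 to 4 the medians were -0.06, -0.02, 0.12 and -0.04 at shares of 8.91%, 9.71%, 10.3% and 9.59%, again in the order of the shares but close together. Mates helped choose the sets and are given as a description: the medians of the 631 genes were -0.12, -0.07 and 0.19 in degrader replicates 1, 3 and 4 and -0.07, -0.03 and 0.09 in p300 KO replicates 2, 3 and 4, again in the order of their shares. For the 96 lower genes the p300 KO mates, at 0.0060, -0.04 and 0.04, did not follow it. MALAT1 was 3720, 2760, 5082 and 3260 nuclear CPM in DMSO replicates 1 to 4, in the same order, and 1358, 1600, 1839 and 1695 in NTC replicates 1 to 4, where replicates 2 and 4 change places. With 4 libraries a group these orders carry no test, and deviations within a group are tied to each other because they are taken against the same libraries.

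**Figure D5:**
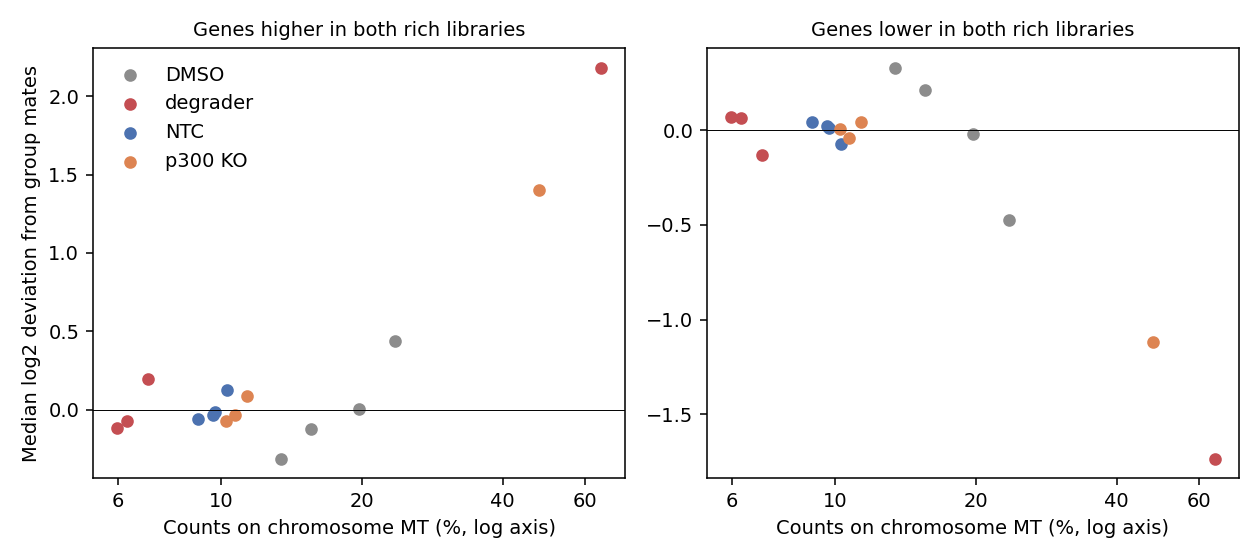
Median log2 deviation of the 631 genes higher in both mitochondria-rich libraries (left) and of the 96 lower in both (right) against the rest of the library's group (y axis), by mitochondrial share (x axis, percent, log scale); each point is 1 of 16 libraries, coloured by group. Degrader 2 (2.18 and -1.73) and p300 KO 1 (1.40 and -1.12) fixed the sets; among the others DMSO 3 is farthest out, at 0.44 and -0.48.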

How the data were processed

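Bulk RNA counts per gene were read for 4 groups of 4 libraries. The deposited values are raw counts per gene, 57500 genes a library. Programs named in the submitters' processing notes, without role or order, are Trimmomatic (0.36), STAR (2.5.2b), featureCounts from Subread (1.5.2) and DESeq2 (1.16.1), with the build GRCh38. How strand and multiply mapped reads were handled, and which annotation release was used, is not stated. Total counts ran from 12.6 to 23.1 M, and no 2 libraries had identical counts. Symbols were matched for 40907 genes, and 56898 identifiers matched GENCODE 29, of which 96.3% had the same position. With no genome in hand, GC content, coding and UTR lengths came from each gene's longest GENCODE 29 transcript (for coding genes, the longest with a coding sequence), and length bins used the summed exon length in the files.

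Nuclear CPM are counts over the sum of counts outside chromosome MT and deviations used a pseudocount of 0.5. The step was checked on simulated counts with known folds. No test was run. Named genes were EP300, CREBBP, MYC and IRF4; the first 12 coding and 6 other genes each way, ranked by the smaller deviation among genes with a mean of at least 20 nuclear CPM that lay outside their mates' range in both groups; the first 4 each way with opposite signs; up to 3 a list, or all where 5 or fewer passed 2-fold in a direction; mitochondrial mRNAs; and the list of earlier results. HSPA5 lies outside this rule and was chosen after its values were seen. The members, lists and rules were chosen with earlier results of these data known. Alternatives were scaling with edgeR 4.0.16 (TMM) or DESeq2 1.42.0 (median of ratios), the minimum level, the pseudocount, thinning, coding genes only and leaving out each mate. 3 more were chosen after seeing the data: totals without MALAT1 and the nuclear copies of mitochondrial genes, the length of the longest transcript, and the minimum on the mates for gene types and set medians.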

Additional observations from a re-analysis of the deposited data

Results flagged for a closer look

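In groups of 4 libraries, 92 sets of 4 values were checked for a value with an unusually wide gap to the others. Of the values, 22 stood apart, and 18 of these belonged to degrader 2 or p300 KO 1. The cut-off is one that about 1 in 20 sets of values drawn alike would pass. That rate is no yardstick here, because 2 libraries were chosen by their counts and the measures depend on each other. Degrader 2 stood apart in its mitochondrial share (64.9%), nuclear counts (4.42 M), mean coding transcript length (3860 bases), mean coding GC (50.1%), EP300 (184 nuclear CPM), CREBBP (86.8 nuclear CPM) and RHOBTB3 (11.1 nuclear CPM against 5.03 to 5.33). P300 KO 1 stood apart in its mitochondrial share (47.7%), nuclear counts (8.66 M) and genes with a count at equal depth (24927). The shares of nuclear counts of protein-coding genes (91.4% and 92.7%), lincRNAs (4.14% and 3.29%), antisense genes (0.795% and 0.797%) and sense-intronic transcripts (0.154% and 0.104%) were set apart in degrader 2 and p300 KO 1 in turn. Mitochondrial share chose these libraries, so its gap, and the nuclear counts that go with it, restate the choice.

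In the other libraries CREBBP was low in p300 KO 3 (71.2 nuclear CPM against 77.8 to 79.0), MYC low in degrader 4 (30.6 against 37.5 to 38.4) and high in NTC 1 (117 against 105 to 106), and PFKFB4, a regulator of glycolysis, high in DMSO 1 (18.8 against 15.6 to 15.9).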

How the results depend on the processing

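No paired analysis was possible because no result comes from a test and each library was set against its own group. Counts moved by more than 1.5 times under scaling and the minimum level. The genes 2-fold higher in degrader 2 were 984 with TMM factors, 5355 with no minimum and 877 at 20 nuclear CPM, and genes lower were 2600 with TMM and 2144 with median-of-ratios factors. The genes 2-fold higher in p300 KO 1 were 402, 3128 and 362 under the first 3 settings, and genes lower were 549 (TMM), 366 (median of ratios), 303 (no minimum), 80 (20 nuclear CPM) and 81 (pseudocount 2). Genes higher in both were 382 with TMM, 2278 with no minimum and 341 at 20 nuclear CPM; genes lower in both were 449 with TMM and 285 with median-of-ratios factors. The Pearson r was 0.69 with no minimum and 0.87 at 20 nuclear CPM.

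The difference between the longest and shortest bin in degrader 2 was 1.11 (median of ratios), 0.40 (no minimum), 1.32 (20 nuclear CPM), 1.14 (minimum on the mates), 1.11 (pseudocount 0.1), 0.99 (pseudocount 2), 1.24 (coding genes) and 1.17 (longest transcript). In p300 KO 1 it turned to -0.068 with no minimum; the cause was not tested. The difference between the highest and lowest GC bin in degrader 2, -0.39, was -0.40 (median of ratios), -0.32 (no minimum), -0.43 (20 nuclear CPM), -0.37 (minimum on the mates), -0.40 (pseudocount 0.1), -0.37 (pseudocount 2), -0.40 (thinned mates) and -0.37 (coding genes). Leaving out each mate in turn gave -0.39 to -0.38 for that difference, and 1.05 to 1.08 for length; it gave 619 to 656 genes higher and 94 to 106 lower in both.

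Signs of single medians turned as follows, with no cause tested. These medians are not relative to the median of all genes. Relative to it, no list named here changed sign under TMM or median-of-ratios factors. With nuclear totals, TMM and median-of-ratios factors in turn, ZNF genes in degrader 2 were then at 0.42, 0.42 and 0.43. Kinesins in p300 KO 1 were at 0.17, 0.16 and 0.17. With TMM factors the lowest GC bin was -0.13 in degrader 2 and -0.17 in p300 KO 1 (-0.063 with median of ratios), and the longest bin of p300 KO 1 -0.063. With no minimum the shortest bin of degrader 2 was 0.029. In degrader 2 cytoplasmic RNA decay was -0.15 with TMM and -0.0097 with median of ratios, the list of earlier results -0.095 and ZNF genes -0.014 with TMM, and immediate early genes 0.0073 at 20 nuclear CPM. In p300 KO 1 immediate early genes were 0.24 with no minimum; giant proteins were -0.055 and histones -0.011 with TMM, histones -0.31 with the minimum on the mates; and ZNF genes were -0.11 and -0.0059, kinesins -0.16 and -0.046, and snoRNA hosts -0.20 and -0.088 with TMM and median of ratios. The median of all genes was 0.062 and 0.076 with no minimum, and 0.0013 in degrader 2 with totals without MALAT1 and the copies.

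Depth limits genes near the minimum level: 5 nuclear CPM in degrader 2 rests on few counts, and counting error is largest there. Totals without MALAT1 and the longest transcript were settings chosen after seeing the data.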
